A study of Mus musculus with 6 samples.

Results

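The collagen genes other than the anchoring collagens are the 42 symbols, of 24453 in the count files, that carry a collagen chain name (Col, a type number, a and a chain number), leaving out Col7a1 and Col17a1. Their RNA was measured by sequencing in epidermal cells of newborn mice (postnatal day 0) labelled as double knockouts of the Polycomb ligases Ring1a and Ring1b, and in mice labelled as controls. The knockout-labelled group has the genotype Ring1a-/- Ring1b-/- and 3 libraries, called K1, K2 and K3 here (Ring1ab_dKO in the plots), and the control-labelled group has 3 libraries, C1, C2 and C3 (Control in the plots). The libraries were made from back skin cells sorted for EpCAM, Sca1 and a high level of α6-integrin, a gate for interfollicular epidermis enriched in its progenitors. The deleted alleles, any Cre driver, the alleles of the controls and the number of animals behind each library are not stated in the labels. The p-values thus measure the spread between these libraries, which may be technical in part.

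Collagens are secreted proteins of 3 chains that wind into a triple helix, and each chain has its own gene. Fibrillar collagens form the fibres of dermis, bone and cartilage. Type IV collagen forms the network of basement membranes such as the one under the epidermis, and FACIT collagens (fibril-associated collagens with interrupted triple helices) bind to the surface of fibrils. Dermal fibroblasts are the known main source of skin collagen, while basal keratinocytes are known to contribute chains of the basement membrane. Ring1a and Ring1b, encoded by Ring1 and Rnf2, are the ubiquitin ligases of Polycomb repressive complex 1, which acts on histone H2A and helps keep developmental genes silent.

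Library totals were 18951665 to 31187270 counts in the knockout-labelled and 22699108 to 29193535 counts in the control-labelled group. Ring1 had 1.66, 5.20 and 14.2 CPM (counts-per-million on TMM-adjusted library sizes) in K1, K2 and K3, against 30.9, 17.1 and 3.90 CPM in C1, C2 and C3. K3 thus stood above C3, against their labels, so the libraries are called by their labels. Neither Ring1 nor Rnf2 passed the test between the groups (edgeR adjusted p = 0.389 and 0.575). Rnf2 had 55.4 to 64.1 CPM in the knockout-labelled and 43.2 to 63.2 CPM in the control-labelled libraries, and since the deleted part is unknown its counts check no label. The inactive X transcript Xist was high in K1, K2 and C3 (1757 to 6133 CPM) and low in K3, C1 and C2 (4.48 to 10.5 CPM), a split that the labels do not follow. The Y-linked gene Ddx3y was at 59.7 to 102 CPM in K3, C1, C2 and C3 and at 0.0346 and 0.206 CPM in K1 and K2, so C3 held both transcripts. Whether K3 and C3 were exchanged or mixed with other material was not tested, and every group value below holds for the libraries as labelled. The first principal component of all tested genes (55.7% of the variance) separated the labels, and the second (18.4%) set K1 and C1 apart from the other libraries. The sorted cell type was present by its markers, with Krt5, a keratin of basal cells, at 15665 to 20133 CPM in the knockout-labelled and 18578 to 28244 CPM in the control-labelled libraries. The summed level of 10 markers of the sorted keratinocytes was 28723 to 32061 CPM in the knockout-labelled and 32873 to 47853 CPM in the control-labelled libraries. Of the 10, 3 fell (Trp63, Col17a1 and Lamb3), none rose and 7 did not pass, beside 2.98% of all tested genes that were lower and 7.17% that were higher. Krt5 and Krt14, most of that sum, did not pass (edgeR adjusted p = 0.350 and 0.592). Epcam had 207 to 381 CPM in the knockout-labelled and 116 to 168 CPM in the control-labelled libraries (log2 fold change 0.95, with an edgeR adjusted p = 0.0598). The log2 fold changes of Ly6a and Cdh1 were 0.54 and 0.36, and that of Krt15 was -1.07 (edgeR adjusted p = 0.462, 0.299 and 0.126). The part of these markers in the collagen results was not tested.

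Of the 42 collagen genes, 33 had enough counts to be tested, 4 of them rose, 5 fell and 24 did not pass (edgeR quasi-likelihood test, Benjamini-Hochberg adjusted p under 0.05 over 14890 genes). Col2a1, Col5a1, Col6a2 and Col9a3 rose, and Col4a5, Col4a6, Col8a1, Col12a1 and Col16a1 fell. The called share of the tested collagen genes was 27.3%, beside 10.2% of all tested genes (7.17% of all tested genes were higher and 2.98% lower). The median log2 fold change of the tested collagen genes was 0.09, against 0.00040 for all tested genes, with calls in both directions. With an offset for GC content and exonic length, which moved the median of all tested genes to -0.15 and the share of higher calls among all genes to 46.8%, against 70.6% without it, the same 9 collagen genes were called and the median of the collagen genes was -0.50. No overlap between the groups was seen for 13 of the 33 tested collagen genes, beside 32.4% of all tested genes. Without K3 all 9 calls held, without C3 all but Col6a2, and without both K3 and C3 the calls of Col2a1 and Col16a1 held. In that last comparison, of 2 against 2 libraries, the other 7 genes kept their direction (edgeR adjusted p = 0.0579 to 0.137) and 439 genes were called over all genes, against 1512 with all libraries. The other 9 collagen genes were too low to test and had at most 1.97 CPM in any library. Summed over all 42 genes, collagen RNA was 2303, 1686 and 2207 CPM in K1, K2 and K3, against 2347, 1835 and 2076 CPM in C1, C2 and C3, so the sums overlapped while single chains moved in opposite directions.

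**Figure D1:**
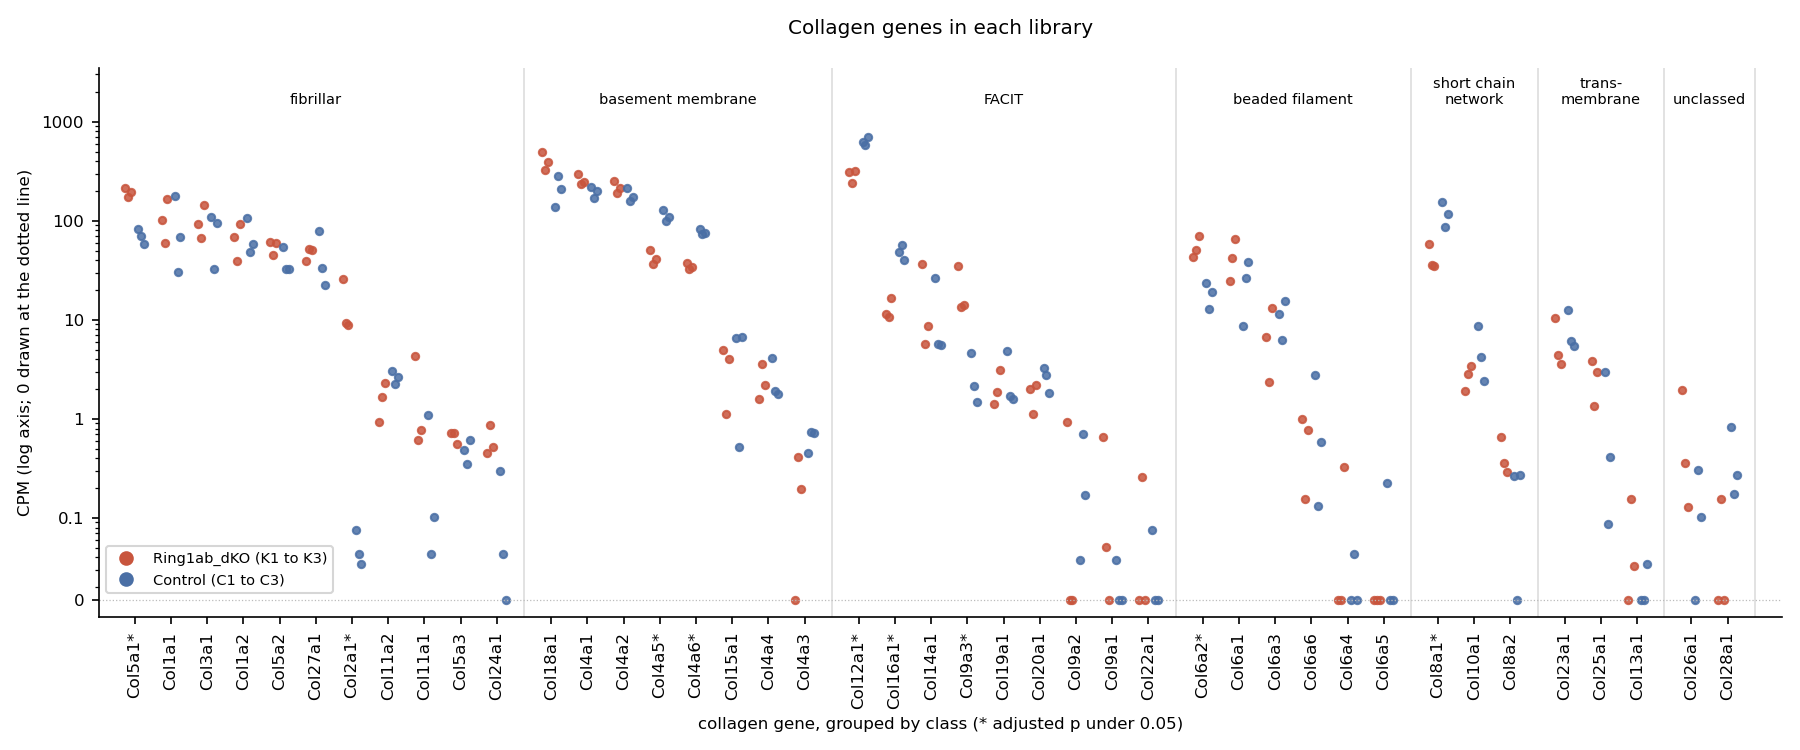
Level of each of the 42 collagen genes in each library, in CPM on a log axis with 0 drawn at the dotted line, grouped by class; each point is a library and asterisks mark the 9 genes that passed. The knockout-labelled points of Col2a1 lie far above the control-labelled ones, while Col12a1, the collagen gene with the highest control-labelled CPM, lies lower in the knockout-labelled libraries.

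**Figure D2:**
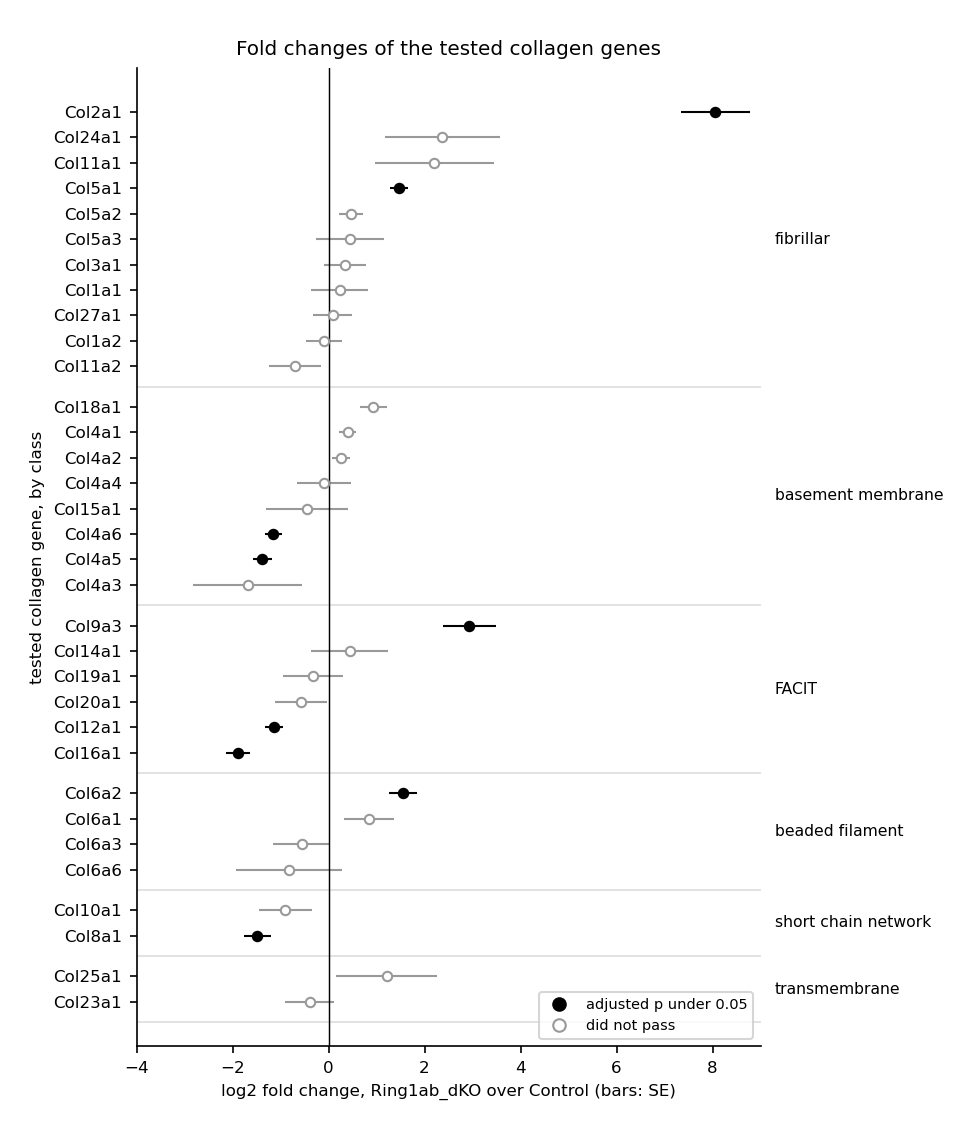
Log2 fold change of the 33 tested collagen genes, knockout-labelled over control-labelled, with the SE as bars, ordered within each class. The filled points are the 4 genes that rose and the 5 that fell; open points did not pass.

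Among the 11 fibrillar collagens, all of them tested, 2 rose, none fell and 9 did not pass, with a median log2 fold change of 0.45. Col2a1, the chain of type II collagen that forms the fibrils of cartilage (GRCm38 chr15:97975602-98004695, minus strand), had 26.1, 9.27 and 8.97 CPM in K1, K2 and K3, against 0.0750, 0.0437 and 0.0342 CPM in C1, C2 and C3. Every control-labelled library was below the level of 3 counts (0.103 to 0.131 CPM), with 4 counts in all, and K1 was the highest library. The log2 fold change of Col2a1 was 8.06 ± 0.72 (SE, with an edgeR adjusted p = 6.98e-04), the largest among the tested collagen genes, though its size rests on those 4 control-labelled counts. Col2a1 entered the test only through the knockout-labelled libraries, so a collagen gene like it could be seen only as higher.

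Col5a1, the main chain of type V collagen, which starts and limits the growth of collagen I fibrils (GRCm38 chr2:27886425-28039514, plus strand), had 214, 174 and 194 CPM in K1, K2 and K3, against 82.0, 71.0 and 58.9 CPM in C1, C2 and C3. All knockout-labelled libraries lay above all control-labelled ones, at a log2 fold change of 1.46 ± 0.19 (SE, with an edgeR adjusted p = 0.00245). With the GC and length offset it was 0.76 (edgeR adjusted p = 0.0194). Col5a2, the chain that joins it in the common form of type V collagen, had 60.6, 45.2 and 59.1 CPM in K1, K2 and K3, against 53.8, 32.7 and 33.0 CPM in C1, C2 and C3, but did not pass (log2 fold change 0.46 ± 0.25, SE; edgeR adjusted p = 0.305). Scaled to exonic length, the log2 ratio of the Col5a1 to the Col5a2 level was 1.99, 2.13 and 1.89 in K1, K2 and K3, against 0.78, 1.29 and 1.01 in C1, C2 and C3. The groups did not overlap in this ratio (two-sided exact permutation p = 0.10, the smallest that 3 against 3 libraries allow, and 0.25 after adjustment over the 5 chain pairs compared). The same permutation test gave p = 0.10 for Col4a5 with Col4a6. It gave 0.20 for Col4a1 with Col4a2, 0.30 for Col1a1 with Col1a2 and 0.60 for Col6a2 with Col6a1.

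The collagens of ordinary dermal fibres did not pass. Col1a1, of type I collagen, had 103, 59.5 and 164 CPM in K1, K2 and K3, against 180, 30.7 and 67.9 CPM in C1, C2 and C3. Its partner chain Col1a2 had 69.3, 39.5 and 92.8 CPM in K1, K2 and K3, against 108, 49.0 and 58.2 CPM in C1, C2 and C3. Col3a1, of type III collagen, had 92.5, 66.4 and 143 CPM in K1, K2 and K3, against 110, 32.9 and 95.6 CPM in C1, C2 and C3. The groups overlapped for each of these genes, C2 being the lowest or next to lowest library throughout, and their log2 fold changes were 0.23 ± 0.59, -0.09 ± 0.37 and 0.34 ± 0.44 (SE, with an edgeR adjusted p = 0.859, 0.913 and 0.697). The sign for Col1a1 turned to -0.48 with the GC and length offset. Among the remaining fibrillar chains Col11a1, Col24a1 and Col5a3 had log2 fold changes of 2.2 ± 1.24, 2.37 ± 1.20 and 0.45 ± 0.71 (SE) at low levels, and Col11a2 and Col27a1 had -0.70 ± 0.54 and 0.09 ± 0.41, none of them passing (edgeR adjusted p = 0.271 to 0.927). Per exonic kilobase, Col5a1 was at 22.9 and Col1a1 at 16.6 CPM in the knockout-labelled libraries, against 8.32 and 14.1 CPM in the control-labelled ones.

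Markers of fibroblasts, the known main source of fibrillar collagen, moved in both directions. Of 16 fibroblast markers 15 were tested, 3 rose, 1 fell and 11 did not pass, beside 10.2% of all tested genes called in either direction. The summed level of the 16 markers was 1232 to 1416 CPM in the knockout-labelled and 1472 to 1795 CPM in the control-labelled libraries. Postn made up the largest part of that sum, and without it, a choice made after its values were seen, the other 15 markers summed to 778 to 872 CPM in the knockout-labelled and 358 to 686 CPM in the control-labelled libraries, the opposite order. Fbln2 and Fbn1, matrix glycoproteins, rose by 1.98 ± 0.21 and 2.08 ± 0.35 on the log2 scale (SE, with an edgeR adjusted p = 0.00125 and 0.00738), and so did Thy1, a surface protein (1.18 ± 0.28; edgeR adjusted p = 0.0317). Postn, a secreted matrix protein, fell by 1.10 ± 0.21 (SE, with an edgeR adjusted p = 0.0133). The Thy1 call was lost on leaving out K1, K2, K3, C1 or C3 (edgeR adjusted p = 0.0547 to 0.116), and that of Postn without C3 (0.0504). Among low mesenchymal markers, Prrx1 had 5.98 to 9.37 CPM in the knockout-labelled and 1.16 to 4.0 CPM in the control-labelled libraries, and Pdgfra 4.22 to 10.9 CPM in the knockout-labelled and 1.49 to 4.55 CPM in the control-labelled ones (edgeR adjusted p = 0.0800 and 0.204). In the other direction, Fap had 0 to 0.162 CPM in the knockout-labelled and 0.513 to 1.84 CPM in the control-labelled libraries (edgeR adjusted p = 0.112). Lum had 1.49 to 3.84 CPM and 2.23 to 16.2 CPM in the same order (edgeR adjusted p = 0.198). Dcn, the highest of the markers after Postn, overlapped between the groups, at 263 to 321 CPM and 129 to 374 CPM (edgeR adjusted p = 0.634). Twist2 had 0.0346 to 0.130 CPM in the knockout-labelled and 0 to 1.06 CPM in the control-labelled libraries and was not tested, and none of the 16 markers was at 0 in all libraries. The part of fibroblast RNA in the collagen results was not tested, and in these bulk samples fewer cells of a type and less RNA per cell cannot be told apart.

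Among the cartilage collagens Col2a1 and Col9a3 rose while their partner and companion genes did not pass or were too low to test. The class holds 7 genes, Col2a1, Col10a1, Col11a1, Col11a2 and the 3 chains of type IX collagen, all of which also belong to another class, and 5 of them were tested. The other 3 tested genes did not pass (edgeR adjusted p = 0.325 to 0.478). Col9a3, the α3 chain of the FACIT collagen that coats cartilage fibrils (GRCm38 chr2:180597790-180622189, plus strand), had 35.2, 13.5 and 14.3 CPM in K1, K2 and K3, against 4.61, 2.14 and 1.47 CPM in C1, C2 and C3. K1 and C1 were each the highest of their group, no value overlapped, and the log2 fold change was 2.94 ± 0.55 (SE, with an edgeR adjusted p = 0.0124). With the Xist level as a covariate Col9a3 did not pass (log2 fold change 2.90; edgeR adjusted p = 0.0529), and with the GC and length offset it was 2.27 (edgeR adjusted p = 0.0280).

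The partner chains of Col9a3 were close to absent. Col9a1 had 0.658, 0.0515 and 0 CPM in K1, K2 and K3, against 0.0375, 0 and 0 CPM in C1, C2 and C3. Col9a2 had 0.935, 0 and 0 CPM in K1, K2 and K3, against 0.0375, 0.699 and 0.171 CPM in C1, C2 and C3. Neither was tested, and their counts in K2 and K3 were at or below the level of 3 counts. The annotated exons of Col9a3 share 234 bases, 6.07% of its exonic length, with Tcfl5, a transcription factor gene on the opposite strand. Tcfl5 had 2.56, 4.89 and 4.58 CPM in K1, K2 and K3, against 0.338, 0.0437 and 0.239 CPM in C1, C2 and C3, in each library below Col9a3. Whether the counting used strand is not stated in the labels, so the share of Tcfl5 reads in Col9a3 was not tested.

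Col10a1, the collagen of hypertrophic cartilage, had 1.90, 2.83 and 3.41 CPM in K1, K2 and K3, against 8.59, 4.20 and 2.43 CPM in C1, C2 and C3 (log2 fold change -0.90 ± 0.55, SE; edgeR adjusted p = 0.364). Col11a1, a chain of type XI collagen, had 4.33, 0.618 and 0.780 CPM in K1, K2 and K3, against 1.09, 0.0437 and 0.103 CPM in C1, C2 and C3, where K1 and C1 stood highest in their groups. Of the chondrocyte markers outside the family, Acan, the core protein of the main cartilage proteoglycan, had 4.5, 12.5 and 4.74 CPM in K1, K2 and K3, against 0.150, 0 and 0.137 CPM in C1, C2 and C3. Acan was called higher (edgeR adjusted p = 0.00430). Like Col2a1 it entered the test only through the knockout-labelled libraries, and with 8 counts in all control-labelled libraries its fitted log2 fold change of 6.12 ± 0.89 (SE) rests on few counts. Sox9 had 105 to 460 CPM in the knockout-labelled and 85.9 to 307 CPM in the control-labelled libraries and did not pass (edgeR adjusted p = 0.711). Other chondrocyte markers, the Sox genes aside, were at or near 0 in the knockout-labelled libraries. There Matn1, a cartilage matrix protein, was at 0 to 0.325 CPM. Hapln1, which links aggrecan to hyaluronan, and Cnmd, chondromodulin, were both at 0 CPM there. In the control-labelled libraries Matn1 was at 0 CPM, Hapln1 at 0 to 1.35 CPM and Cnmd at 0 to 0.0684 CPM. Ucma, of growth plate cartilage, was at 0 in all 6 libraries. Of the 10 chondrocyte markers in the files, 4 were tested, 1 rose and 1 fell, beside 10.2% of all tested genes called in either direction. The marker that fell was Sox6, a partner of Sox9, by 1.41 (edgeR adjusted p = 0.0423, lost on leaving out K2, K3, C1, C2 or C3). The summed level of the 10 markers was 237 to 521 CPM in the knockout-labelled and 289 to 648 CPM in the control-labelled libraries, nearly all of it from Sox9 and Sox6. Without the Sox genes, a choice made after their values were seen, the other 7 markers summed to 4.71 to 12.6 CPM in the knockout-labelled and 0.376 to 2.51 CPM in the control-labelled libraries, of which Acan was the main part in the knockout-labelled ones.

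**Figure D3:**
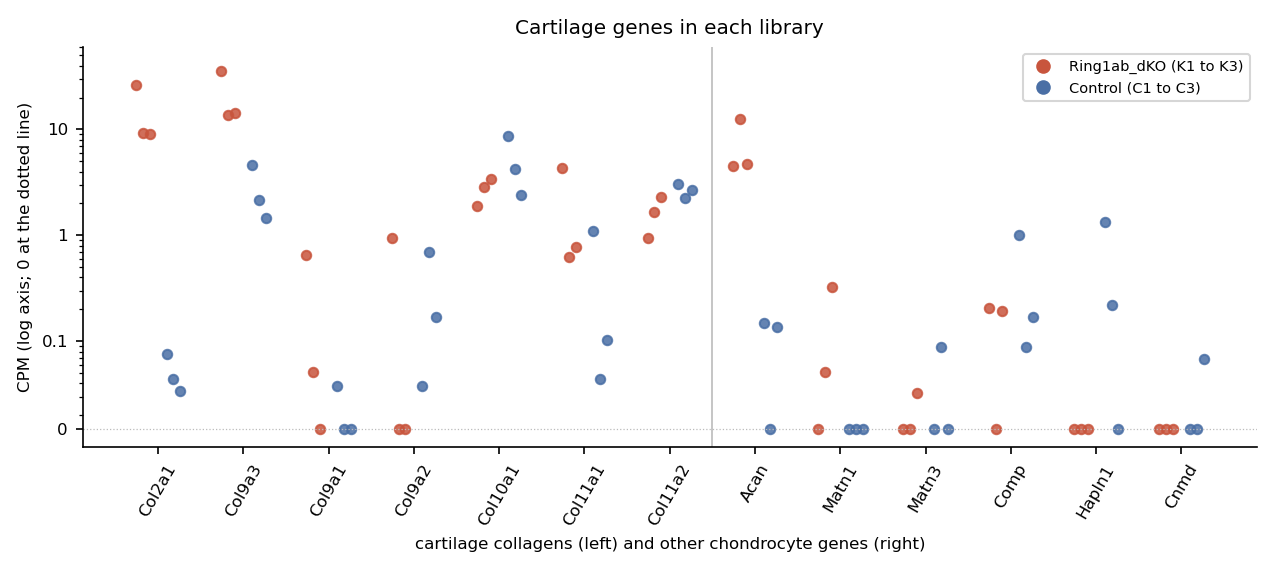
Level of the 7 cartilage collagens and of 6 other chondrocyte genes in each library, in CPM on a log axis with 0 drawn at the dotted line. Col2a1, Col9a3 and Acan are higher in every knockout-labelled library, while Col9a1, Col9a2, Matn1, Matn3, Comp, Hapln1 and Cnmd lie mostly near or at 0 in both groups.

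Basement membrane collagens split by chain. Of 8 genes, all tested, 2 fell, none rose and 6 did not pass, with a median log2 fold change of -0.27. The genes of type IV collagen lie in head-to-head pairs, and the X-linked pair Col4a5 and Col4a6 fell while the pair Col4a1 and Col4a2 did not pass. Per exonic kilobase, Col4a1 and Col4a2 were at 34.7 and 33.0 CPM in the knockout-labelled libraries, against 26.4 and 27.5 CPM in the control-labelled ones. Col4a5 and Col4a6 were at 6.44 and 4.37 CPM per exonic kilobase in the knockout-labelled libraries, against 16.8 and 9.70 CPM in the control-labelled ones.

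The start regions of both pairs are shown because both genes of the X-linked pair were called and neither gene of the other pair was. RefSeq windows on GRCm38.p6, from 250 bases before to 50 bases after the annotated start, are written in the direction of the gene with CG dinucleotides in capitals. The windows are chrX:141475169-141475468 (plus strand) for Col4a5, chrX:141474027-141474326 (minus strand) for Col4a6, chr8:11312777-11313076 (minus strand) for Col4a1 and chr8:11312555-11312854 (plus strand) for Col4a2.
Col4a5: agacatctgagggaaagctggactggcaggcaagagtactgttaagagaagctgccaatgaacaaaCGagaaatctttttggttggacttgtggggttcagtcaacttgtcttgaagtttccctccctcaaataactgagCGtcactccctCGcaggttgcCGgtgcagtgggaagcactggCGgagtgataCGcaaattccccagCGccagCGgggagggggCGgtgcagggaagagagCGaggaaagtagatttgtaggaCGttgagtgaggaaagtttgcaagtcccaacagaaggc
Col4a6: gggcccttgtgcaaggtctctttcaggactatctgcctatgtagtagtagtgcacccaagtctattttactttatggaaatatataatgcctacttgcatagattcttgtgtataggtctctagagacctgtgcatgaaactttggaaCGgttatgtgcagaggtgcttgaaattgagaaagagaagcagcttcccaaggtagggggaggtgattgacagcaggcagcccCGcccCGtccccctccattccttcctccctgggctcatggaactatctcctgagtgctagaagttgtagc
Col4a1: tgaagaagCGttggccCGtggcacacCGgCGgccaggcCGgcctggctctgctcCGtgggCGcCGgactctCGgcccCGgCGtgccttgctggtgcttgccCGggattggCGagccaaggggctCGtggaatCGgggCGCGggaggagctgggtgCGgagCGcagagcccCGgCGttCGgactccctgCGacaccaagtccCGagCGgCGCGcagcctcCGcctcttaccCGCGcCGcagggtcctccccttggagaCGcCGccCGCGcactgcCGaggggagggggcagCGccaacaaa
Col4a2: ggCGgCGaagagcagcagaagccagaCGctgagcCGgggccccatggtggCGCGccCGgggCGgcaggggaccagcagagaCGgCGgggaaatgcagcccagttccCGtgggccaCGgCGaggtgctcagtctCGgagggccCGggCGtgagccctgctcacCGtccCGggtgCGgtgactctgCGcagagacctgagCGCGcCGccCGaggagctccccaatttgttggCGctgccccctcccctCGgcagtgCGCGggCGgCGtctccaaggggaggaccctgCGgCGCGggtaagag
The windows of the pair that fell hold 11 CG dinucleotides for Col4a5 and 3 for Col4a6, and those of the other pair hold 37 for Col4a1 and 33 for Col4a2. Of 32851 RefSeq windows of the same length, 94.57% hold at least 1 CG, 41.4% hold as many as Col4a5 or more and 5.58% as many as Col4a1 or more. The starts of Col4a1 and Col4a2 lie 21 bases apart and their windows share 78 bases, whereas 1343 bases separate the starts of Col4a5 and Col4a6. The motif CCAAT, searched on both strands and found in 37.4% of all windows, occurs once in the windows of Col4a5, Col4a1 and Col4a2 and not in that of Col4a6. Windows were in the RefSeq table for 33 of the 42 collagen genes and 6 of the 9 that passed. Of the other called genes, Col5a1, which rose, has 34 CG dinucleotides in its window and Col6a2, which rose, has 16 and 6 in its 2 windows, while Col16a1 and Col8a1, which fell, have 24 and 12.

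Col4a5, the α5 chain of type IV collagen (GRCm38 chrX:141475385-141689234, plus strand), had 51.2, 37.0 and 41.6 CPM in K1, K2 and K3, against 129, 100 and 109 CPM in C1, C2 and C3. Col4a6, the α6 chain that pairs with it in the basement membrane of skin (GRCm38 chrX:141165403-141474076, minus strand), had 37.9, 32.5 and 34.2 CPM in K1, K2 and K3, against 82.2, 73.8 and 76.0 CPM in C1, C2 and C3. The groups were well apart for both genes, with log2 fold changes of -1.38 ± 0.20 and -1.15 ± 0.17 (SE, with an edgeR adjusted p = 0.00424 and 0.00493). Both genes are X-linked and the Xist level differed between libraries, and with that level as a covariate the log2 fold changes were -1.39 and -1.15 (edgeR adjusted p = 0.0191 and 0.0218). The log2 ratio of the Col4a5 to the Col4a6 level per kilobase was 0.55 ± 0.13 in the knockout-labelled and 0.79 ± 0.11 in the control-labelled libraries (SD, n = 3; two-sided exact permutation p = 0.10, 0.25 adjusted over 5 pairs).

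Col4a1, a chain of the ubiquitous form of type IV collagen, had 298, 233 and 246 CPM in K1, K2 and K3, against 218, 171 and 201 CPM in C1, C2 and C3. Its partner Col4a2 had 251, 190 and 215 CPM in K1, K2 and K3, against 216, 157 and 174 CPM in C1, C2 and C3. The groups of Col4a1 did not overlap and those of Col4a2 did, and neither gene passed (log2 fold changes 0.40 ± 0.18 and 0.26 ± 0.19, SE; edgeR adjusted p = 0.212 and 0.443). With the GC and length offset both signs turned (-0.26 and -0.60; edgeR adjusted p = 0.346 and 0.0519). Col4a3 and Col4a4, the pair known from kidney and lung membranes, were low, at 0 to 0.412 and 1.59 to 3.55 CPM in the knockout-labelled libraries and 0.450 to 0.743 and 1.78 to 4.13 CPM in the control-labelled ones, and did not pass (edgeR adjusted p = 0.411 and 0.944).

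**Figure D4:**
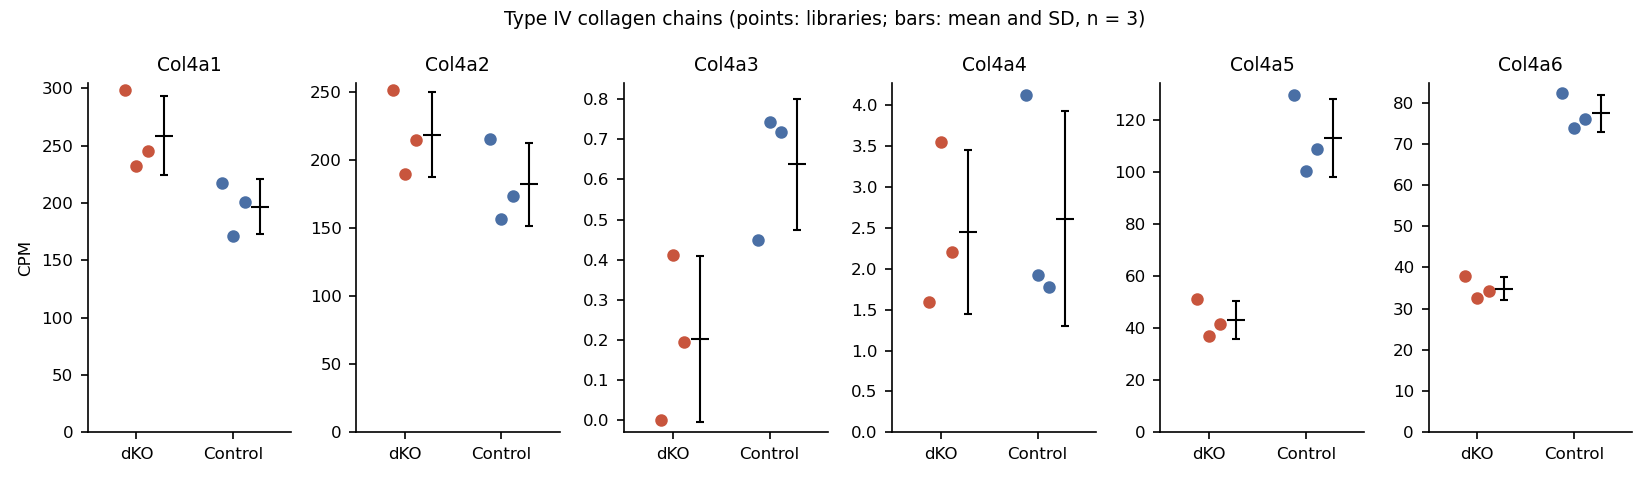
CPM of the 6 type IV collagen chains, on an axis of its own for each gene; points are libraries and bars give the mean and SD of 3 libraries. Col4a5 and Col4a6 lie lower in all knockout-labelled libraries, at 32.5 to 51.2 CPM against 73.8 to 129 CPM.

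Col18a1, the heparan sulfate collagen of basement membranes whose end fragment is endostatin, had 495, 325 and 390 CPM in K1, K2 and K3, against 138, 283 and 212 CPM in C1, C2 and C3. All knockout-labelled libraries were above all control-labelled ones, C1 being the lowest, but the gene did not pass (log2 fold change 0.94 ± 0.28, SE; edgeR adjusted p = 0.0693). It passed with DESeq2 (adjusted p = 0.0190), with limma-voom (0.0496), with no count filter (edgeR 0.0398) and without C2 (edgeR 0.0447), and its log2 fold change was 0.018 with the GC and length offset (edgeR adjusted p = 0.976). The summed level of 8 pericyte and smooth muscle markers, cells that lie against vessel basement membranes, was 453, 235 and 250 CPM in K1, K2 and K3, against 152, 153 and 135 CPM in C1, C2 and C3. Of these markers 7 were tested and 1 rose, beside 7.17% of all tested genes that were higher. It was Notch3, a receptor that other cells also make (log2 fold change 1.18, with an edgeR adjusted p = 0.0114). Acta2, smooth muscle actin, had 7.67 to 26.6 CPM in the knockout-labelled and 1.47 to 4.88 CPM in the control-labelled libraries (log2 fold change 2.33; edgeR adjusted p = 0.0542), and Tagln and Cspg4, also with no overlap between the groups, had log2 fold changes of 0.48 and 1.10 (edgeR adjusted p = 0.400 and 0.112). The pericyte gene Rgs5 had 0.0515 to 2.63 CPM in the knockout-labelled and 2.19 to 4.48 CPM in the control-labelled libraries. The log2 fold changes of Rgs5, Myh11 and Abcc9 were -1.85, -0.95 and -0.83, and none of them passed (edgeR adjusted p = 0.354, 0.578 and 0.735). Most of the sum was Cspg4 and Notch3, no marker of the list was at 0 in all libraries, and its part in the Col18a1 values was not tested. Col15a1, its relative at vessel and muscle membranes, had 4.95, 1.13 and 4.0 CPM in K1, K2 and K3, against 6.53, 0.524 and 6.67 CPM in C1, C2 and C3. K2 and C2 were the lowest of their groups for Col15a1, as they were for the summed endothelial markers (13.5, 12 and 50.7 CPM in K1, K2 and K3, against 26.9, 9.79 and 57.8 CPM in C1, C2 and C3). K1, the highest knockout-labelled library for Col15a1, stood near K2 and far below K3 in the endothelial sum. Of 10 endothelial markers, all tested, 0 passed in edgeR and 0 had an unadjusted p under 0.05, and the share of endothelial RNA in the Col15a1 counts was not tested.

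Col12a1 and Col16a1 carried the fall among the FACIT collagens. Of 9 FACIT genes 6 were tested, 1 rose (Col9a3), 2 fell and 3 did not pass. Col12a1, the chain of type XII collagen, which lies along fibrils under tension (GRCm38 chr9:79598991-79718831, minus strand), had 312, 240 and 316 CPM in K1, K2 and K3, against 621, 580 and 705 CPM in C1, C2 and C3. The highest knockout-labelled library was far below the lowest control-labelled one, at a log2 fold change of -1.14 ± 0.18 (SE, with an edgeR adjusted p = 0.00606). Its share of all collagen counts was 13.5 to 14.3% in the knockout-labelled and 26.5 to 34.0% in the control-labelled libraries. Per exonic kilobase Col12a1 was at 19 CPM in the knockout-labelled libraries, against 41.7 CPM in the control-labelled ones, where it was the highest of the 42 genes. In the knockout-labelled libraries Col18a1 was the highest, at 57.5 CPM per exonic kilobase, against 30.0 CPM in the control-labelled ones.

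Col16a1, the chain of type XVI collagen, found at the junction of dermis and epidermis (GRCm38 chr4:130047840-130099283, plus strand), had 11.5, 10.8 and 16.8 CPM in K1, K2 and K3, against 48.9, 56.4 and 40.0 CPM in C1, C2 and C3. The groups lay apart, and the log2 fold change was -1.89 ± 0.25 (SE, with an edgeR adjusted p = 0.00299), or -2.84 with the GC and length offset (edgeR adjusted p = 7.90e-04). Col14a1, a relative of Col12a1, followed no label, with 36.6, 5.66 and 8.74 CPM in K1, K2 and K3, against 26.3, 5.73 and 5.58 CPM in C1, C2 and C3, so that K1 and C1 were high. Col19a1 and Col20a1 were at 1.13 to 3.15 CPM in the knockout-labelled and 1.57 to 4.80 CPM in the control-labelled libraries and did not pass (edgeR adjusted p = 0.807 and 0.567).

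**Figure D5:**
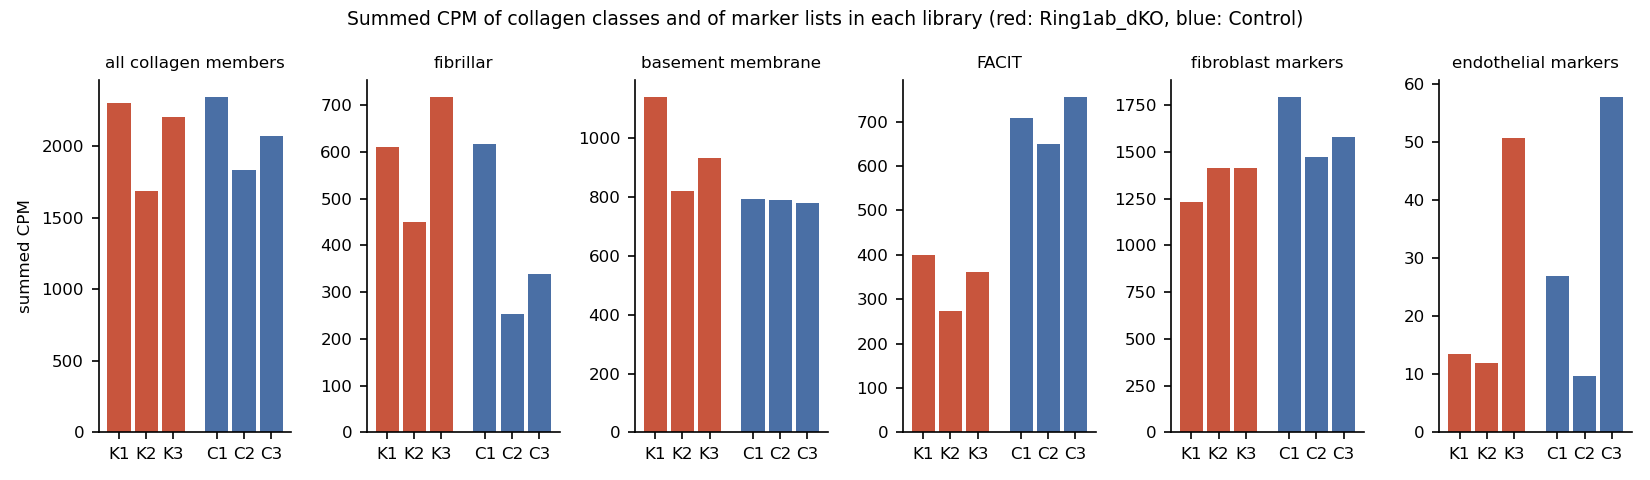
Summed CPM in each library for all 42 collagen genes, for 3 classes and for the fibroblast and endothelial marker lists; each bar is a library. The FACIT sum, most of it Col12a1 in every library, was 273 to 400 CPM in the knockout-labelled and 650 to 756 CPM in the control-labelled libraries. The fibrillar sums overlapped (450 to 718 CPM against 253 to 617 CPM).

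Of the 6 beaded filament chains of type VI collagen, which form a microfibril network around cells, 4 were tested and Col6a2 rose. It had 42.6, 50.3 and 69.7 CPM in K1, K2 and K3, against 23.8, 12.8 and 19 CPM in C1, C2 and C3 (GRCm38 chr10:76595762-76623630, minus strand). The groups did not overlap, at a log2 fold change of 1.55 ± 0.29 (SE, with an edgeR adjusted p = 0.0123), and without C3 the call was lost at 1.56 (edgeR adjusted p = 0.0523). Col6a1, its partner chain, had 24.8, 42.1 and 65.8 CPM in K1, K2 and K3, against 8.74, 26.7 and 38.3 CPM in C1, C2 and C3, with overlap between groups (log2 fold change 0.85 ± 0.52, SE; edgeR adjusted p = 0.367). Col6a3, the chain that completes the trimer, had 6.68, 2.37 and 13.3 CPM in K1, K2 and K3, against 11.4, 6.29 and 15.4 CPM in C1, C2 and C3 (log2 fold change -0.56 ± 0.58, SE; edgeR adjusted p = 0.616). Col6a4, Col6a5 and Col6a6 were at 0 to 1.00 CPM in the knockout-labelled and 0 to 2.78 CPM in the control-labelled libraries.

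Col8a1, a short-chain collagen that forms hexagonal networks in the cornea and vessel walls (GRCm38 chr16:57624258-57754737, minus strand), fell. It had 57.9, 36.1 and 34.6 CPM in K1, K2 and K3, against 155, 87.1 and 118 CPM in C1, C2 and C3, with no overlap and a log2 fold change of -1.49 ± 0.28 (SE, with an edgeR adjusted p = 0.0133). Without K2 the call was lost at -1.37 (edgeR adjusted p = 0.0606). Its partner chain Col8a2 was at 0.292 to 0.658 CPM in the knockout-labelled and 0 to 0.274 CPM in the control-labelled libraries and was not tested. The transmembrane collagens Col23a1 and Col25a1 had 3.57 to 10.4 and 1.34 to 3.84 CPM in the knockout-labelled libraries, against 5.51 to 12.6 and 0.0874 to 3.0 CPM in the control-labelled ones, and did not pass (edgeR adjusted p = 0.708 and 0.533). Col13a1, Col22a1, Col26a1 and Col28a1 completed the family at 0 to 1.97 CPM in the knockout-labelled and 0 to 0.825 CPM in the control-labelled libraries. Counts limit these last genes: Col28a1 had 3 counts over the knockout-labelled and 34 over the control-labelled libraries, a ratio of 0.0879 (95% exact interval 0.0173 to 0.279, for counting error only). Of those 34 counts 22 were in C1. Other untested genes went the other way, Col9a1 with 20 counts against 1 (ratio 19.9, interval 3.19 to 826) and Col6a4 with 10 against 1 (ratio 9.96, interval 1.42 to 432). Their knockout-labelled counts lay almost all in K1 for Col9a1 and in K3 for Col6a4.

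Of 21 genes in the files that modify and fold procollagen 20 were tested, 5 rose, none fell and 15 did not pass, beside 7.17% of all tested genes that were higher. Their median log2 fold change was 0.19. P4ha2, a catalytic subunit of prolyl 4-hydroxylase, which stabilises the triple helix, had 18.2, 32.3 and 52.0 CPM in K1, K2 and K3, against 1.80, 9.44 and 6.09 CPM in C1, C2 and C3. Plod2, the lysyl hydroxylase of the chain ends, had 59.4, 55.1 and 72.2 CPM in K1, K2 and K3, against 29.7, 7.30 and 9.85 CPM in C1, C2 and C3. The groups did not overlap for either gene, and their log2 fold changes were 2.57 ± 0.59 and 1.99 ± 0.48 (SE, with an edgeR adjusted p = 0.0281 and 0.0341). Fkbp10, a procollagen chaperone, rose by 1.41 ± 0.29 and Sec24d, a coat protein of the vesicles that export procollagen, by 0.99 ± 0.25 on the log2 scale (SE, with an edgeR adjusted p = 0.0177 and 0.0383). Plod3, a further lysyl hydroxylase on the list, beyond the 4 genes that the naming rule takes, rose by 0.81 ± 0.21 (SE, with an edgeR adjusted p = 0.0405). The collagen chaperone Serpinh1 did not pass.

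The number of these calls varied with the libraries used, as did the number over all genes, while the fold changes kept their direction. The 5 calls were 1 without K2, K3 or C3, 3 without C1 or C2, 2 with the GC and length offset, which left P4ha2 and Plod2, and 1 with the Xist covariate. On leaving out 1 library the call of P4ha2 was lost without K2, K3 or C3 (edgeR adjusted p = 0.0702 to 0.0908), that of Plod2 without K1, K2, K3, C2 or C3 (0.0636 to 0.117), that of Sec24d without K1, K2, K3, C1 or C3 (0.0705 to 0.127) and that of Plod3 without any 1 library (0.0538 to 0.132). The Fkbp10 call held each time. Over the same fits the log2 fold change was 2.13 to 3.11 for P4ha2, 1.65 to 2.86 for Plod2, 0.81 to 1.20 for Sec24d and 0.68 to 0.93 for Plod3.

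Some genes of cleavage, crosslinking, recognition and breakdown were called, beside 10.2% of all tested genes called in either direction. Of 15 cleavage and crosslinking genes 11 were tested, 2 rose, none fell and 9 did not pass. Their summed level was lower in the knockout-labelled libraries, at 169 to 251 CPM against 276 to 355 CPM in the control-labelled ones. The median log2 fold change of the 11 tested genes was 0.17, so the lower sum was not a fall of the list as a whole. Adamts14 made up the largest part of the control-labelled sums. It had 22.5, 62.9 and 107 CPM in K1, K2 and K3, against 222, 238 and 167 CPM in C1, C2 and C3. The groups did not overlap for Adamts14, but it did not pass (log2 fold change -1.71 ± 0.47, SE, with an edgeR adjusted p = 0.0542). Adamts3, a procollagen N-propeptidase known to act on type II procollagen, had 9.52, 8.29 and 6.53 CPM in K1, K2 and K3, against 0, 0.0874 and 0.753 CPM in C1, C2 and C3 (log2 fold change 4.79 ± 1.03, SE; edgeR adjusted p = 0.0216). Its control-labelled counts were 0, 2 and 22 in C1, C2 and C3, and without C3 the fitted log2 fold change was 7.46 (edgeR adjusted p = 0.00644). Like Col2a1, Adamts3 entered the test only through the knockout-labelled libraries, so it could be seen only as higher. Loxl2, a lysyl oxidase active on type IV collagen, rose by 1.99 ± 0.43 on the log2 scale (SE, with an edgeR adjusted p = 0.0213). The calls were lost for Adamts3 without K2 or C2 (edgeR adjusted p = 0.0644 and 0.0575) and for Loxl2 without K1, K3 or C3 (0.0502 to 0.0541), which left 1 of the 2 without K1, K2, K3, C2 or C3. Of 10 collagen receptors 9 were tested, 1 rose and 2 fell. Lair1, an inhibitory receptor of immune cells, fell by 3.23 ± 0.69 and the integrin chain Itga2 by 0.89 ± 0.20, and Mrc2, an endocytic collagen receptor, rose by 1.07 ± 0.27 on the log2 scale (SE, with an edgeR adjusted p = 0.0201, 0.0227 and 0.0405). Lair1 entered the test only through the control-labelled libraries, so it could be seen only as lower. Immune markers summed to 61.6 to 173 CPM in the knockout-labelled and 69.1 to 209 CPM in the control-labelled libraries, and of 5 tested 0 passed in edgeR and 0 had an unadjusted p under 0.05. None of these 3 receptor calls held without K2 or without C3, and 1 held without K3, C1 or C2. Of 11 breakdown genes 7 were tested and Timp2, an inhibitor of matrix metalloproteinases, rose by 1.15 ± 0.18 on the log2 scale (SE, with an edgeR adjusted p = 0.00606), a call that held on leaving out any 1 library.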

How the data were processed

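The authors deposited raw counts per gene symbol for 6 libraries, with no normalization. The submitters' processing notes name the genome mm10 and, with no roles, HTSeq 0.6.1, TopHat2 2.0.13, DESeq2 1.6.3 and Cufflinks 2.2.1. Per the labels' protocols, RNA (10 ng) was amplified with a Nugen kit before library construction. Neither the annotation nor the strand setting of the counting is stated, so overlapping genes may share reads.

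Collagen genes were selected by symbol and sorted into classes by textbook family. Members and lists were chosen with earlier results of these data known. Knockout-labelled were compared with control-labelled libraries in edgeR 4.0.16 (R 4.3.3) over all genes, with TMM scaling (factors 0.927 to 1.04), filterByExpr (minimum count 10, minimum total 15), a prior count of 0.125 and a quasi-likelihood F test with Benjamini-Hochberg adjustment. The SE is the log2 fold change over the square root of F. The biological coefficient of variation was 38.3%. CPM were computed from the deposited counts with the TMM library sizes, and levels per kilobase from the union of GENCODE M21 exons (GRCm38), in which 23753 symbols matched 1 gene. A library with 0 counts allows up to 3, or 0.0975 to 0.154 CPM. Floors and intervals cover counting error only, since no molecular identifiers are named. The pipeline was tested on simulated counts. No library pair differed by as little as sampling noise (smallest chi-square per degree of freedom 28.6). Per-library values are given for the called members, the 2 members per class with the highest level per kilobase and the type IV pairs. Other members are given as values or ranges. Up to 4 called genes of each other list are named. Alternatives used DESeq2 1.42.0, limma 3.58.1 and other scalings, filters, covariates and subsets of libraries, and those on the genes of other lists were added after the data were seen. Figures used matplotlib 3.10.9.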

Additional observations from a re-analysis of the deposited data

How the results depend on the processing

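The 9 collagen calls held with size factors of DESeq2, library size alone, no count filter, a filter of 50 counts in 3 libraries, the GC and length offset, the DESeq2 test, limma-voom, a 1.5-fold minimum and replicates 2 and 3 alone. On leaving out each library in turn, 3 to 5 collagen genes were higher and 4 to 5 lower, and the counts by class were 2 for fibrillar, 2 to 3 for basement membrane, 3 for FACIT and 2 for cartilage genes. With replicates 1 and 2 alone, 1 gene was higher (Col2a1) and 1 lower (Col16a1), which left 1 fibrillar, 0 basement membrane, 1 FACIT and 1 cartilage call, while all genes called were 439, against 1512 with all libraries; that setting has fewer libraries, and the log2 fold changes of the other 7 kept their sign (edgeR adjusted p = 0.0579 to 0.137). With replicates 2 and 3 alone 4 fibrillar genes were called, with Col5a2 and Col27a1 added. With the Xist covariate 1 cartilage gene was called.

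The directions of genes that did not pass were less firm, and the cause was not tested. Col1a1 turned to -0.48 with the GC and length offset, -0.23 with the offset and replicate block, -0.39 with replicates 1 and 2 alone, and ran between -0.19 and 1.14 on leaving out each library. Col4a1 was -0.26 and Col4a2 -0.60 both with the offset and with the offset and replicate block, Col4a4 was 0.63 with replicates 2 and 3 alone and -0.45 to 0.40 on leaving out each library, and Col23a1 was -1.01 to 0.085 on the same. Replicate numbers gave correlations of 0.16, 0.20 and 0.070 between same-numbered libraries across 14890 genes, which does not show pairing, although each library correlated best with its own number. With the replicate block the same 9 collagen genes were called (4 higher, 5 lower), and 1451 genes in all. With the block and the offset Col6a3 was added to the lower genes, which made 6. Over all genes the count of 1512 became 2560 with the DESeq2 test, 2694 with replicates 2 and 3 alone, 891 with a 1.5-fold minimum, 810 with the Xist covariate, and 811, 821 and 995 without C3, K2 and K3. The 5 modification and folding calls became 3 with the block and offset and 0 with a 1.5-fold minimum or replicates 1 and 2 alone. The 2 cleavage and crosslinking calls became 4 with no filter, DESeq2, limma-voom or replicates 2 and 3, and 1 with the Xist covariate. The 3 receptor calls became 1 with limma-voom or the 1.5-fold minimum and 0 with replicates 1 and 2 or the Xist covariate, and the 1 breakdown call became 2 with the block, replicates 2 and 3 or without K1 and 0 with replicates 1 and 2. Calls from 3 libraries a group miss smaller changes, and genes under about 1 CPM rest on few counts.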
